A study of Mus musculus with 4 samples.

Results

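Markers of the type 2 conventional dendritic cell were followed in mouse bone marrow cultures driven towards dendritic cells with Flt3 ligand. The 9 genes were taken by symbol from the deposited table of 26026 genes: Clec10a, Mgl2, Cd209a, Sirpa, Cd7, Notch2, Klf4, Tmem176a and Tmem176b. Each was found once and each had a mean above 1 RPKM, a level in reads that is scaled to transcript length and library size. There was 1 polyadenylated RNA library for each of 4 groups: Nfkb1-/- cells at day 5, wild-type cells at day 5, Nfkb1-/- cells at day 3 and wild-type cells at day 3. All groups carry the strain label C57/B16 and grew in 100 ng/mL Flt3 ligand, and the labels name neither a sort nor the number of animals. Nfkb1 encodes p105 and its processed form p50, subunits of the transcription factor NF-kB, and the study's question was how p50 works with the subunit RelA in these differentiating cells. With 1 library per group no difference below has a replicate check or a test.

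Conventional dendritic cells arise from marrow precursors that carry the Flt3 receptor, and they split into a cross-presenting type 1 branch and a type 2 branch that presents antigen on class II molecules to helper T cells. The type 2 branch is recognised by the inhibitory receptor SIRPα (Sirpa) and, in part of its cells, by C-type lectins that bind sugars on microbes. Notch2 signalling and the factor KLF4 are each needed for a subset of type 2 cells in mice. Monocytes and macrophages share many of these genes, so in a bulk culture none of them belongs to one cell type.

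The libraries held between 15255070 and 16215214 reads, as recovered from the RPKM steps, and the 9 markers held between 68 and 10406 reads each in a library. Nfkb1 itself stood at 64.7 RPKM in the knockout and 114 RPKM in wild type at day 5, and at 56.0 RPKM in the knockout and 74.8 RPKM in wild type at day 3. It was thus lower but present in both libraries labelled knockout, and a level summed over the gene cannot tell intact from disrupted transcripts. Of the 12 genes shared by conventional dendritic cells and their precursors, every one was measured, and Zbtb46, the factor that defines the lineage, was low at 1.01 RPKM in the knockout and 3.69 RPKM in wild type at day 5. The summed RPKM of 18 monocyte and macrophage markers ran from 5703 to 8585 and that of 14 neutrophil markers from 3120 to 32884, so RNA of several cell types was present. Below, a ratio comes with its exact 95% interval of the recovered reads, which covers counting error only. A difference is on the log2(RPKM + 1) scale, which understates changes of low genes, and a gene passed the size rule where it reached 1 in absolute value; the rule covered 11786 genes, those averaging 1 RPKM or more. In bulk RNA, fewer cells of a type and less RNA per cell cannot be told apart.

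The markers did not move as a block. The lectin genes Cd209a and Clec10a were far lower in the knockout at day 5, Mgl2 and Cd7 were lower by less, and Sirpa, Notch2 and Klf4 were close to the wild-type level, by ratios of 1.09, 0.888 and 0.802, while Tmem176a and Tmem176b were higher. At day 5, 2 of the 9 markers were lower by the size rule, against 3.22% of all genes, and 0 were higher, against 1.16% (4.39% of all genes in either direction). At day 3, 0 of the 9 passed the rule downward, against 0.882% of all genes, and 0 upward, against 0.976% (1.86% in either direction). The median over the markers was -0.30 at day 5, where the median of all genes was 0.01, and 0.14 at day 3, where that of all genes was 0.13. With so few members these shares describe the genes and say nothing particular about the list.

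**Figure D1:**
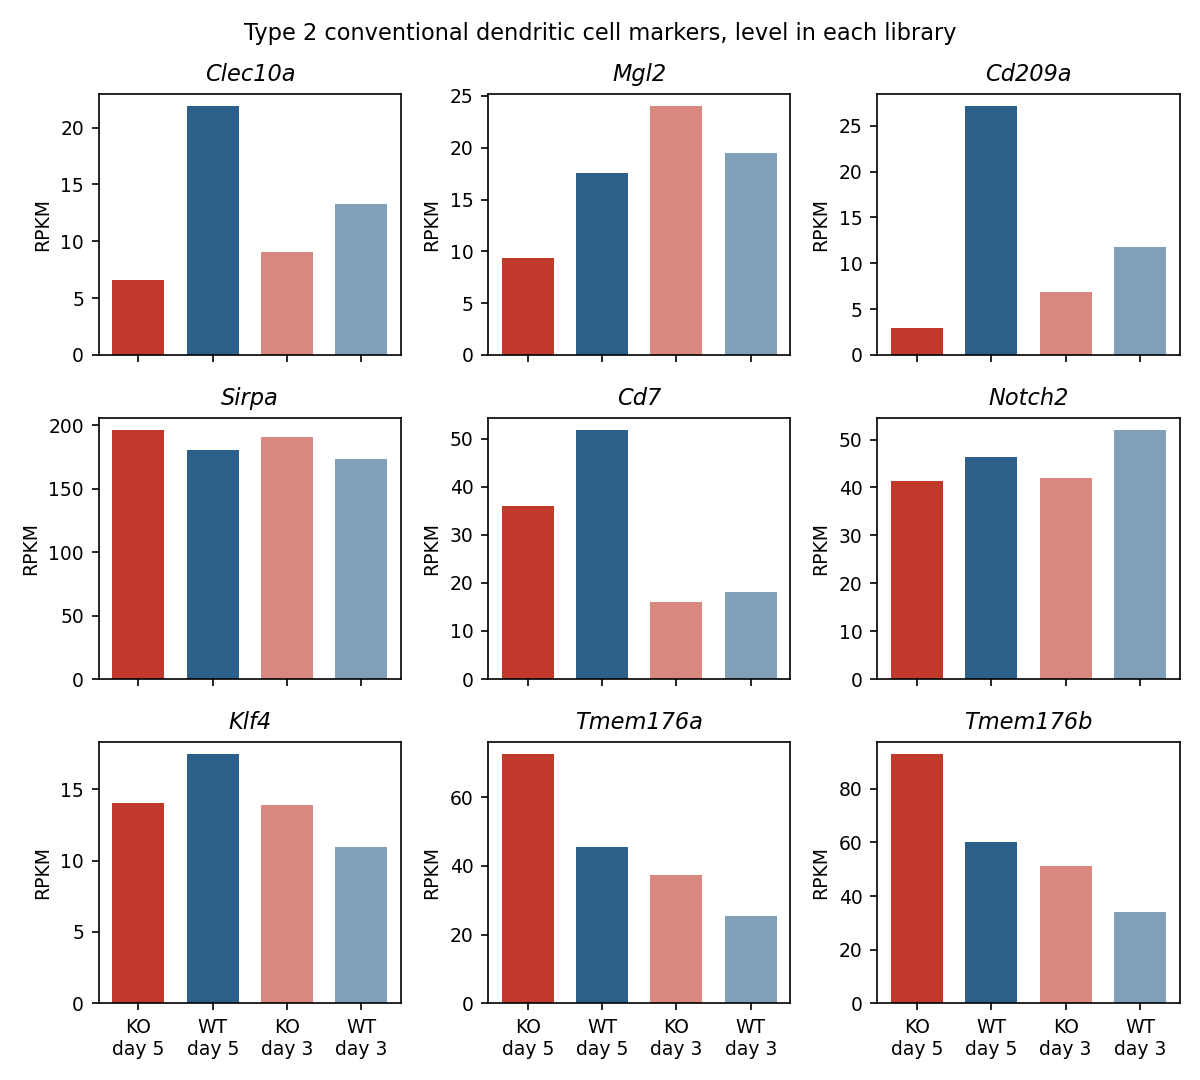
Level of each marker in RPKM (vertical axis, from 0) in each of the 4 libraries, with knockout bars in red and wild-type bars in blue, and day 3 in paler colour. Each bar is 1 library and has no error bar. Cd209a stands at 2.98 RPKM in the knockout and 27.2 RPKM in wild type at day 5, while Sirpa lies between 173 and 196 RPKM in every library.

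Stretches of DNA in front of 4 of the genes are shown: Cd209a and Mgl2, the lectin genes of the set with a promoter entry at hand, both lower in the day 5 knockout, and Tmem176a with Tmem176b, neighbours on opposite strands that were higher. The promoter sequences are from RefSeq on GRCm38.p6, while the submitters' processing notes name mm9 for the reads, and an entry was at hand for 6 of the 9 genes. The first is the 250 bases before the start of Cd209a (chr8:3748985-3749234, minus strand), the next the 250 bases before the start of Mgl2 (chr11:70130107-70130356, plus strand). The last is the 108 bases between the nearest starts of Tmem176b and Tmem176a (chr6:48841375-48841482, plus strand). Capitals mark matches, on either strand, to any of 5 searched motifs.
Cd209a: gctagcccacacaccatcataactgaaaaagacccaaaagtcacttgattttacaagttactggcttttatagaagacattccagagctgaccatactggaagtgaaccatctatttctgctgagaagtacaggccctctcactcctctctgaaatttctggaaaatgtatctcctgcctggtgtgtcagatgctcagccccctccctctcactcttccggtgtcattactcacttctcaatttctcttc
Mgl2: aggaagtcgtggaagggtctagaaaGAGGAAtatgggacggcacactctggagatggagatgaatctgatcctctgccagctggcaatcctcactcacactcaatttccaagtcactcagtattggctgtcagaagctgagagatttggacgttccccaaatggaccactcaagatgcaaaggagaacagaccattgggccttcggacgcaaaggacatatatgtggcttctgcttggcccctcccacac
Tmem176a and Tmem176b: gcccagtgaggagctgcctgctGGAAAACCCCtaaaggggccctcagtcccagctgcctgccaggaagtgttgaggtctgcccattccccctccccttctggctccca

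The motifs were GGG and TTTCC with 2 free bases between them (NF-kB), TGGGAA (RBPJ, the factor through which Notch receptors act), GAGGAA (PU.1, a factor of myeloid and dendritic cells), CCACCC (Kruppel-like factors) and GGAA and GAAA with 2 free bases between them (the composite element of PU.1 with IRF4 or IRF8). The stretch between Tmem176b and Tmem176a holds 1 match to the NF-kB letters. That pattern was found in 0.658% of stretches of that length just before 32851 annotated starts. Windows of 250 bases before the starts of the pair were searched too. Some overlap each other and this stretch, so the same letters can appear in more than 1 window. The Tmem176a start at 48841656 had 1 RBPJ, 2 PU.1 and 1 Kruppel-like match, and 0 for NF-kB. The Tmem176b start at 48841374 had 2 PU.1 and 1 Kruppel-like match, the same letters as in the window of the start at 48841656. Its 1 NF-kB match is the one printed above. Another Tmem176b start, at 48840988, had 2 Kruppel-like matches. The Mgl2 stretch holds 1 match to the PU.1 letters, found in 23.3% of all 250-base stretches, and the Cd209a stretch holds none of the 5. No match to any of the 5 was found in the 250 bases before the starts of Notch2 or Klf4. A match is a description of letters, and no match says only that these letters are absent from the window.

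Cd209a (NM_133238) encodes a mouse relative of the human lectin DC-SIGN, which binds mannose and fucose on pathogens. It stood at 2.98 RPKM in the knockout and 27.2 RPKM in wild type at day 5, and at 6.86 RPKM in the knockout and 11.7 RPKM in wild type at day 3. The day 5 knockout library had by far the lowest level and the day 5 wild-type library by far the highest, and each step in the order of the 4 libraries exceeded counting error. Knockout over wild type gave a ratio of 0.109 (0.0840 to 0.141) at day 5, a 9.13-fold lower level, and 0.584 (0.478 to 0.711) at day 3. On the log2 scale the day 5 difference was -2.83, a value reached or exceeded downward by 4 of the 11786 genes, Cd209a included. The gene shared no 50-base stretch with any other annotated transcript.

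Clec10a (NM_010796) encodes the lectin MGL1 (CD301a), which binds galactose and N-acetylgalactosamine. Its level was 6.63 RPKM in the knockout and 21.9 RPKM in wild type at day 5, and 9.10 RPKM in the knockout and 13.3 RPKM in wild type at day 3. The libraries took the same order as for Cd209a, lowest in the day 5 knockout and highest in day 5 wild type. Knockout over wild type came to 0.303 (0.251 to 0.363) at day 5 and 0.686 (0.574 to 0.819) at day 3. The differences were -1.59 and -0.50, of which the day 5 value passed the size rule.

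Mgl2 (NM_145137) encodes the paralog MGL2 (CD301b), a marker of type 2 dendritic cells of the skin and of some macrophages. It stood at 9.34 RPKM in the knockout and 17.5 RPKM in wild type at day 5, and at 24.0 RPKM in the knockout and 19.5 RPKM in wild type at day 3. In contrast to the other lectins its highest level was in the day 3 knockout, and the wild-type libraries of day 5 and day 3 did not differ beyond counting error. Relative to wild type, the knockout level was 0.533 (0.451 to 0.628) at day 5, whereas at day 3 it was 1.24 (1.09 to 1.40). The day 3 excess over wild type was 0.29 on the log2 scale and 0.16 relative to the median of all genes, and the interval held 1 after libraries were brought to a common median ratio, called median-ratio rescaling below (1.10, from 0.971 to 1.24).

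Clec10a and Mgl2 are near copies: 270 of the 50-base stretches of their annotated transcripts were identical, 8.49% of those of Clec10a and 12.2% of those of Mgl2. Reads from these stretches could have been assigned to either gene, and no source used here says how the authors treated such reads. Their balance differed between libraries. The ratio of Mgl2 to Clec10a RPKM was 1.41 in the knockout and 0.8002 in wild type at day 5, and 2.64 in the knockout and 1.47 in wild type at day 3. Mgl2 was thus the more abundant of the pair in 3 libraries and the less abundant in day 5 wild type. The summed level of the 3 lectin genes was 18.95 RPKM in the knockout and 66.6 RPKM in wild type at day 5, and 39.99 RPKM in the knockout and 44.5 RPKM in wild type at day 3.

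**Figure D2:**
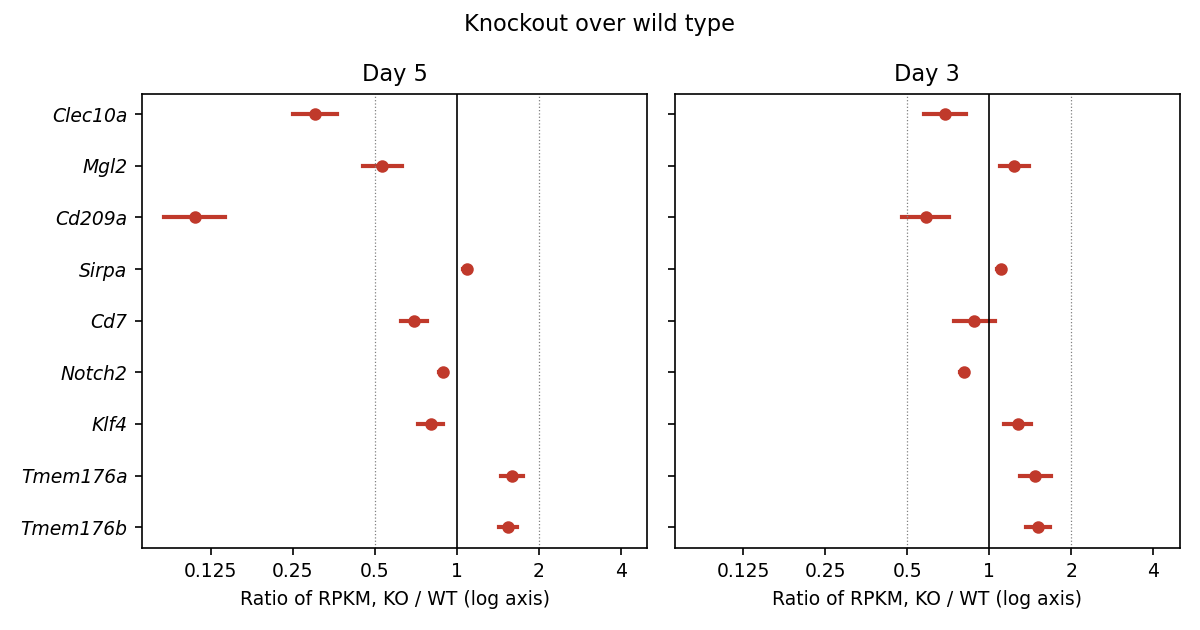
Ratio of knockout to wild-type RPKM for the 9 markers on a log axis, at day 5 (left) and day 3 (right). Points are ratios of single libraries, bars are exact 95% intervals that cover counting error only, and dotted lines mark ratios of 0.5 and 2. At day 5 the bars of Clec10a and Cd209a lie wholly below 0.5, and at day 3 no bar of the 9 does.

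Sirpa (NM_001177647) encodes the receptor for CD47, the signal by which cells restrain phagocytes, and is the usual surface marker of the type 2 branch. It was the most abundant of the 9, at 196 RPKM in the knockout and 181 RPKM in wild type at day 5, and at 191 RPKM in the knockout and 173 RPKM in wild type at day 3. The level was nearly flat, with a highest library 1.13 times the lowest. At day 5 the knockout level over wild type was 1.09 (1.06 to 1.12). The day 3 ratio was 1.10 (1.07 to 1.13), or 0.979 (0.951 to 1.01) after median-ratio rescaling. Relative to Clec10a, Sirpa RPKM was 29.6 times as high in the knockout and 8.24 times as high in wild type at day 5. Of 9 other genes of the SIRP and CD47 axis, among them Cd47, the phosphatases Ptpn6 and Ptpn11 and the adaptor Tyrobp, 0 passed the rule in either direction at either day. Over all genes the shares were 4.39% at day 5 and 1.86% at day 3, so a count of 0 among so few is unremarkable. The medians of the 9 were 0.04 at day 5 and -0.04 at day 3.

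Notch2 (NM_010928), the receptor through which Delta-like ligands support a splenic subset of type 2 cells, stood at 41.3 RPKM in the knockout and 46.4 RPKM in wild type at day 5, and at 42.0 RPKM in the knockout and 52.0 RPKM in wild type at day 3. Both knockout libraries lay below both wild-type libraries, by small margins. Knockout levels were 0.888 (0.860 to 0.918) at day 5 and 0.809 (0.784 to 0.835) at day 3 as a share of wild type. After median-ratio rescaling the day 3 value was lower, at 0.719 (0.697 to 0.742). Annotated exons of Gm42820 overlap 541 of its exonic bases on the same strand. Of 25 other Notch pathway genes 19 averaged 1 RPKM or more, with medians of -0.09 at day 5 and 0.03 at day 3. Between genotypes 0 passed the rule at either day, against 4.39% of all genes at day 5 and 1.86% at day 3. Rbpj, the DNA-binding partner of Notch receptors, stood at 8.74 RPKM in the knockout and 13.4 RPKM in wild type at day 5, a difference of -0.57. Dtx1, a target of Notch signalling, was the pathway gene past the rule between days in the knockout, where 3.01% of all genes were lower. It stood at 0.542 RPKM at day 5 and 2.52 RPKM at day 3, on 31 and 152 reads. In wild type it was lower at day 5 as well, at 1.55 RPKM against 3.41 RPKM at day 3, a difference of -0.79.

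Klf4 (NM_010637) encodes a zinc-finger factor of monocytes and of type 2 dendritic cells that drive T helper 2 responses. It had 14.0 RPKM in the knockout and 17.5 RPKM in wild type at day 5, and 13.9 RPKM in the knockout and 11.0 RPKM in wild type at day 3. The knockout libraries lay between the wild-type ones and did not differ from each other beyond counting error. Over wild type, the knockout stood at 0.802 (0.724 to 0.889) at day 5 and 1.27 (1.13 to 1.43) at day 3, so the direction differed between the days, with neither value past the size rule. The day 3 difference of 0.32 was 0.19 relative to the median of all genes. Of 16 other Kruppel-like factor genes 10 averaged 1 RPKM or more. Between genotypes 0 of these passed the rule, against 4.39% of all genes at day 5 and 1.86% at day 3. Their medians were -0.26 at day 5 and 0.10 at day 3.

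Cd7 (NM_009854) encodes an immunoglobulin-superfamily receptor best known from T and NK cells and also found on some dendritic cells. Its level was 36.1 RPKM in the knockout and 51.8 RPKM in wild type at day 5, and 16.0 RPKM in the knockout and 18.2 RPKM in wild type at day 3. Both day 5 libraries lay above both day 3 libraries, and the day 3 libraries did not differ beyond counting error. The knockout had 0.697 (0.626 to 0.775) of the wild-type level at day 5 and 0.882 (0.744 to 1.04) at day 3, where the interval lay below 1 after median-ratio rescaling (0.784, from 0.662 to 0.929). These intervals rest on a recovered length of 1040 bases, set by the reference transcript of 982 bases, and 122 of the exonic bases overlap Gm11775 on the opposite strand. The summed RPKM of T, NK and innate lymphoid markers, of which 16 of 17 were in the table, was 34.2 in the knockout and 51.0 in wild type at day 5, and 56.0 in the knockout and 76.4 in wild type at day 3. The sum was lower at day 5 than at day 3 in both genotypes, where Cd7 was higher, but the members did not all go one way. Of the 11 that averaged 1 RPKM or more, 10 were below 0 between the days in the knockout and 9 in wild type. Among all genes, 56.1% were above 0 between the days in the knockout and 69.3% in wild type. Cd5, a surface receptor of T cells, was higher at day 5, by 1.08 in the knockout and 0.56 in wild type, and Il7r differed by -0.31 in the knockout and 0.01 in wild type. The part of such cells in the Cd7 level was not tested. Cd8a, Klrb1c, Ncr1, Gzma and Gata3 had means under 1 RPKM.

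Tmem176a (NM_001098271) and Tmem176b (NM_001286652) encode multi-pass membrane proteins of intracellular vesicles, expressed in conventional dendritic cells and macrophages. Tmem176b stood at 93.0 RPKM in the knockout and 60.1 RPKM in wild type at day 5, and at 51.1 RPKM in the knockout and 33.9 RPKM in wild type at day 3. Tmem176a stood at 72.5 RPKM in the knockout and 45.6 RPKM in wild type at day 5, and at 37.4 RPKM in the knockout and 25.3 RPKM in wild type at day 3. The 4 libraries took the same order for both genes, with day 5 above day 3 and, within each day, the knockout above wild type, and each step exceeded counting error. For Tmem176b the ratio of knockout over wild type was 1.55 (1.43 to 1.67) at day 5, and at day 3 it was 1.51 (1.36 to 1.67). For Tmem176a the values were 1.59 (1.45 to 1.75) at day 5 and 1.47 (1.30 to 1.68) at day 3. None of these 4 differences passed the size rule, and they ran from 0.54 to 0.66. After median-ratio rescaling the day 3 ratios were 1.34 (1.21 to 1.49) for Tmem176b and 1.31 (1.15 to 1.49) for Tmem176a. The ratio of Tmem176b to Tmem176a RPKM was 1.28 in the knockout and 1.32 in wild type at day 5, and 1.37 in the knockout and 1.34 in wild type at day 3, so the pair kept its balance. The genes lie head to head across the stretch of chromosome 6 printed above, and their annotated exons overlap by 81 bases on opposite strands. No source used here says whether reads were counted by strand.

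Day 5 was also set against day 3 within each genotype. In the knockout, 1 of the 9 markers was higher at day 5 than at day 3 by the size rule, against 0.594% of all genes, and 1 was lower, against 3.01% (3.61% in either direction). In wild type, 2 were higher, against 1.8% of all genes, and 0 were lower, against 2.05% (3.85% in either direction). The median over the markers was 0.01 in the knockout, where that of all genes was 0.04, and 0.68 in wild type, where that of all genes was 0.16. Cd7 was higher at day 5 in each genotype, with a ratio of day 5 to day 3 of 2.25 (1.95 to 2.61) in the knockout and 2.85 (2.49 to 3.27) in wild type. Tmem176a was higher as well, by ratios of 1.94 (1.76 to 2.15) in the knockout and 1.799 (1.59 to 2.04) in wild type, and Tmem176b by 1.82 (1.68 to 1.97) in the knockout and 1.77 (1.61 to 1.96) in wild type.

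The lectin genes took opposite or unequal courses. For Cd209a the ratio of day 5 to day 3 was 0.434 (0.322 to 0.579) in the knockout and 2.31 (2.00 to 2.68) in wild type, where the difference of 1.14 fell short of the rule at 0.98 after median-ratio rescaling. Clec10a had ratios of 0.729 (0.589 to 0.900) in the knockout and 1.65 (1.43 to 1.91) in wild type. Mgl2 had ratios of 0.389 (0.332 to 0.454) in the knockout and 0.901 (0.789 to 1.03) in wild type, its wild-type interval holding 1 but lying below it after median-ratio rescaling (0.8004, from 0.701 to 0.914). Klf4 was level in the knockout at 1.01 (0.903 to 1.12) and higher in wild type at 1.59 (1.43 to 1.78). The genotype difference at day 5 minus that at day 3 was -2.13 for Cd209a, -1.13 for Mgl2 and -1.09 for Clec10a; the 2 differences share no library. These 3 of 9 markers passed the size rule downward, against 2.63% of all genes, and 0 passed it upward, against 1% (3.63% in either direction). After median-ratio rescaling Cd209a was the marker left past the rule, with Mgl2 at -0.99 and Clec10a at -0.95. As a ratio of ratios the shift was 0.188 (0.137 to 0.257) for Cd209a, 0.431 (0.353 to 0.528) for Mgl2 and 0.441 (0.344 to 0.566) for Clec10a, with intervals from the normal approximation to counting error. For Sirpa, Tmem176a and Tmem176b that interval held 1.

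**Figure D3:**
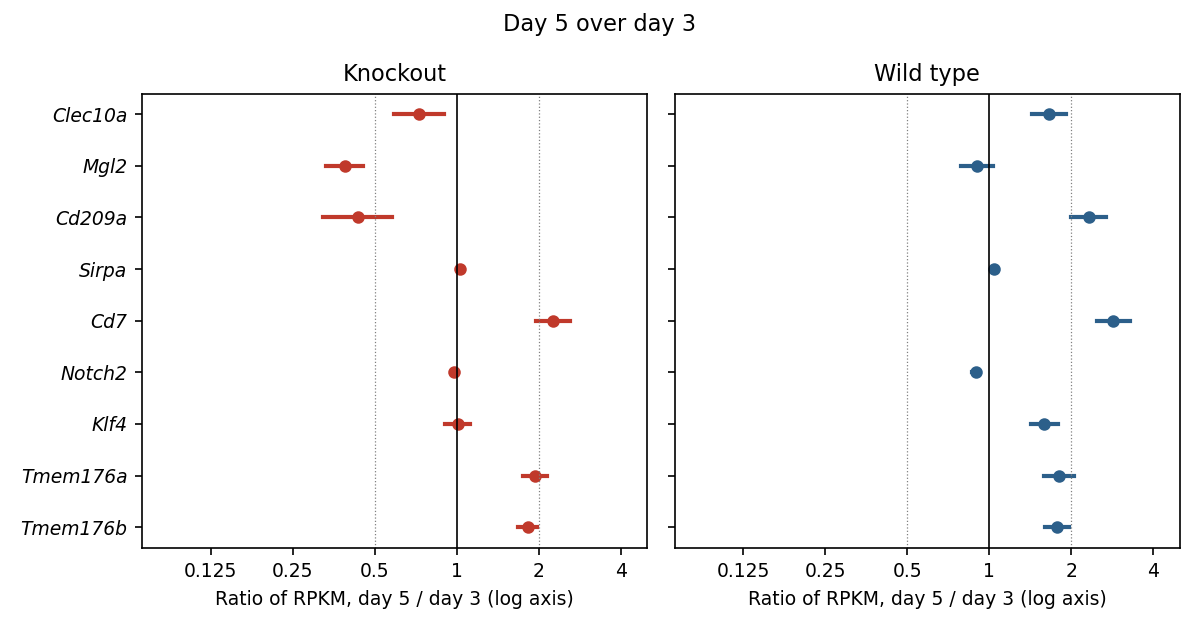
Ratio of day 5 to day 3 RPKM for the 9 markers on a log axis, in the knockout (left, red) and wild type (right, blue). Points are ratios of single libraries, bars are exact 95% intervals that cover counting error only, and dotted lines mark ratios of 0.5 and 2. The 3 lectin genes lie below 1 in the knockout, where Clec10a and Cd209a lie above 1 in wild type.

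Other genes of the type 2 branch and its regulators, a separate list of 18 genes of which 15 averaged 1 RPKM or more, gave 4 lower and 0 higher by the size rule at day 5, against 3.22% and 1.16% of all genes. At day 3, 2 were lower and 0 higher, against 0.882% and 0.976% of all genes. Itgax (CD11c), the integrin of dendritic cells, stood at 20.03 RPKM in the knockout and 55.3 RPKM in wild type at day 5, a difference of -1.42. Cd4, on part of the splenic type 2 cells, was lower by the rule at both days (-1.17 at day 5 and -1.07 at day 3), as was the chemokine receptor Ccr6 (-1.04 and -1.34). Ltb, a lymphotoxin subunit, was lower at day 5 (-1.11). Cd4, Ccr6 and Ltb are also lymphocyte genes, and the lymphoid marker sums above were lower in the knockout too; their part in these differences was not tested. Irf4, a factor required for type 2 cell function, differed by -0.14 at day 5 and 0.44 at day 3. Zeb2, needed for the type 2 and plasmacytoid branches, differed by 0.47 at day 5 and 0.23 at day 3, and Itgam (CD11b) by -0.08 and -0.12. Esam, an adhesion molecule of the Notch2-dependent subset, stood at 2.09 RPKM in the knockout and 4.92 RPKM in wild type at day 5, and at 1.29 RPKM in the knockout and 1.12 RPKM in wild type at day 3, on between 32 and 148 reads.

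Most of the lectins nearest to the members were scarce. Of 11 relatives and other lectin genes, 4 averaged 1 RPKM or more, and Cd209b, Cd209f and Cd209g stood at the lowest value, 1 read, in every library. The mannose receptor gene Mrc1, also a macrophage gene, had 11.3 RPKM in the knockout and 20.3 RPKM in wild type at day 5, a difference of -0.80. The low-affinity IgE receptor gene Fcer2a, a B cell gene and differed by -1.89 at day 5 and -2.01 at day 3, on between 14 and 359 reads. Cd209d was also lower by the rule at day 5, at -1.25 on 4 reads in the knockout and 29 in wild type.

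Lists of the other dendritic branches were measured the same way, and their counts at day 5 stand against 3.22% of all genes lower and 1.16% higher. At day 5, 10 of 15 type 1 markers were lower by the rule in the knockout, with a median of -1.35, led by Tlr11 at -2.18 and the chemokine receptor gene Xcr1 at -2.08. Of 13 plasmacytoid markers 4 were lower, with a median of -0.65. Among the 12 genes shared by the conventional branches 8 were lower, with a median of -1.12, among them H2-Aa at -1.73. Itgax is also on the list of other type 2 genes and is counted as lower in both lists. The 18 monocyte and macrophage markers overlap in use with Sirpa, Klf4, Clec10a and the Tmem176 genes. Their median was 0.42 at day 5, with 5 higher and 1 lower by the rule. That median was 0.39 at day 3, where 3 passed upward, against 0.976% of all genes, and 0 downward, against 0.882%. Their summed RPKM was 7383 in the knockout and 5703 in wild type at day 5, and 8585 in the knockout and 6222 in wild type at day 3. Of 14 neutrophil markers 11 were lower in the knockout at day 5, with a median of -2.08, and their summed RPKM was 3120 in the knockout and 13346 in wild type. At day 3, against 0.882% of all genes, 0 genes of the type 1, plasmacytoid, shared and neutrophil lists were lower by the rule. Their day 3 medians were -0.15 for type 1, -0.24 for plasmacytoid, -0.73 for the shared and -0.43 for the neutrophil genes. The part of these cells in the levels of the markers was not tested, and the differences between lists have no test in this design.

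**Figure D4:**
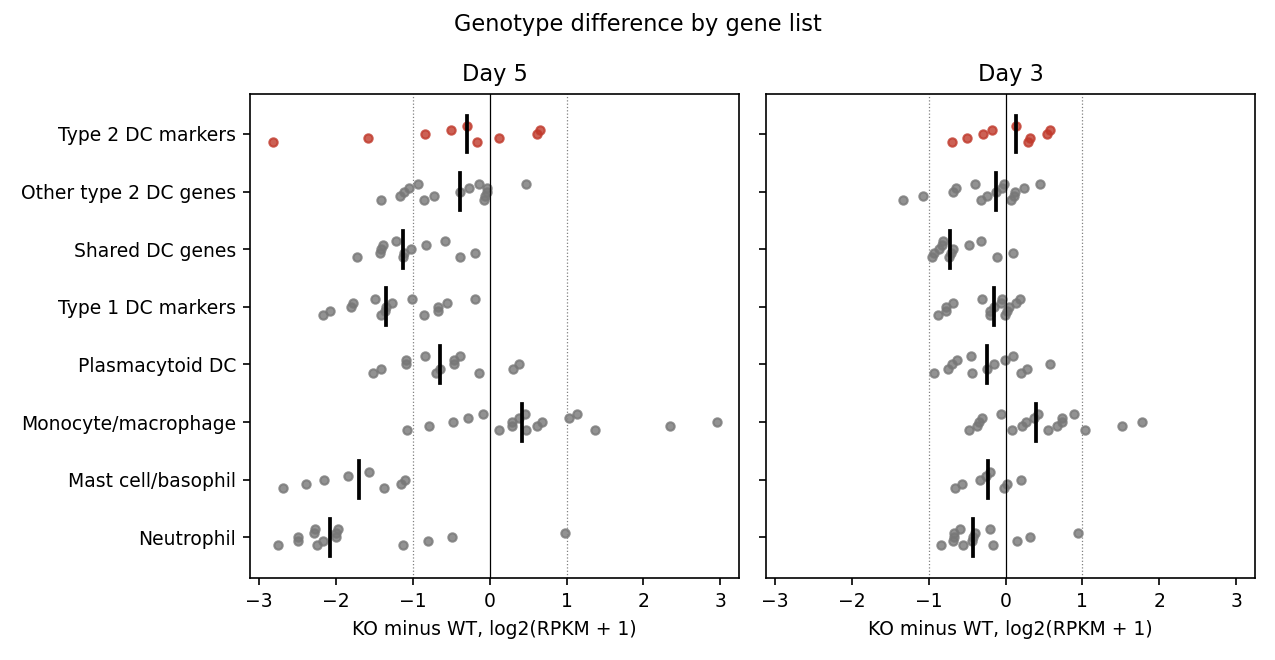
Genotype difference, knockout minus wild type on the log2(RPKM + 1) scale, for each measured gene of 8 lists at day 5 (left) and day 3 (right). Each point is 1 gene, black bars are list medians, red points are the 9 type 2 markers and dotted lines mark the size rule. At day 5 the red points spread from -2.83 to 0.66, while the medians of the type 1 and basophil lists are -1.35 and -1.71.

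The genes whose course over the 4 libraries lay closest to a marker were found by the Euclidean distance of log2(RPKM + 1) values after each gene's own mean was taken off, among 11143 genes averaging 20 reads or more. For Clec10a these were Gpr137b (distance 0.17), the tetraspanin gene Cd9 (0.19), Klra17 (0.21), the inhibitory receptor gene Lag3 (0.24) and Syngr1 (0.25). Cd209a had Atp6v0d2, a proton pump subunit of lysosomes and osteoclasts (0.47), the basophil proteases Prss34 (0.63) and Mcpt8 (0.78), Rtl8b (0.67) and Pianp (0.75), and Clec10a ranked 7th. Tmem176b had Psmg4 (0.05), Tmem176a (0.06), 1700025G04Rik (0.07), the fatty acid desaturase gene Fads2 (0.08) and fumarase, Fh1 (0.09). Each distance rests on 4 libraries. Beside the Cd209a course, all 8 mast cell and basophil markers were lower by the rule in the day 5 knockout, against 3.22% of all genes. Their summed RPKM was 47.8 in the knockout and 258 in wild type at day 5, and 170 in the knockout and 210 in wild type at day 3. The part of those cells in the Cd209a level was not tested.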

How the data were processed

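RNA from 4 cultures was extracted with trizol and made into libraries with a Kapa mRNA kit, per the labels' protocols. HISAT2, SAMtools and mm9 are named in the submitters' processing notes, without versions; a counter, annotation or strand setting was not given in the sources used here. RPKM values were deposited by the authors, per the file headers, for 26026 genes in 1 column per library, and each column was matched to its library by genotype and day. Whole reads and library totals were recovered from the RPKM steps (tolerance 0.003 reads), taking the smallest gene length that gave whole reads or, for 836 genes, its multiple nearest to a GENCODE transcript. No value is 0: 1 read is the floor, and 7985 genes stood there in all libraries, so a gene at 1 read may have none.

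Differences are of log2(RPKM + 1) without rescaling, for the 11786 genes averaging 1 RPKM or more, with a size rule of 1. Python 3.11.15, numpy 2.4.6, pandas 2.3.3 and scipy 1.17.1 were used. Ratio intervals are exact (Clopper-Pearson, 95%) and take reads as independent molecules, which reads without molecular identifiers are not. The procedure was tested on simulated libraries. Members, lists and alternatives were chosen with earlier results of these data known. All 9 members are named, with Nfkb1; from other lists mainly up to 4 genes past the rule in each comparison with at least 20 reads on average. Zbtb46, Irf4, Zeb2, Itgam, Rbpj, Cd209d, Mrc1, Il7r, Cd47, Ptpn6, Ptpn11 and Tyrobp and genes under a filter were named for their known role, after their values were seen. Alternatives changed the pseudocount, the filter, the scaling or the size rule.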

Additional observations from a re-analysis of the deposited data

Results flagged for a closer look

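Among the 9 markers, 4 went in opposite directions under the same contrast, each beyond counting error. The share of all genes that did so was not counted, so the 4 of 9 has no background to stand against. With single libraries the difference between the directions was not tested. Cd209a was lower at day 5 than at day 3 in the knockout and higher in wild type, with a change of the genotype difference of -2.13 on the log2(RPKM + 1) scale. Clec10a did the same, with a change of -1.09. Mgl2 was lower in the knockout than in wild type at day 5 and higher at day 3, with a change of -1.13. Its day 3 excess was within counting error after rescaling by the median ratio, at 1.10 (0.971 to 1.24). Klf4 likewise was lower in the knockout at day 5 and higher at day 3, with a change of -0.62, and its day 3 ratio after that rescaling was 1.13 (1.01 to 1.27).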

How the results depend on the processing

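No paired analysis was possible because each group holds 1 library and the labels carry no replicate numbers; for the same reason no library could be left out. The drop of Cd209a and Clec10a at day 5 stayed past the size rule under each other pseudocount and each rescaling. The other filters left these differences unchanged and the lower size rule was looser, so those alternatives could not alter it. With a pseudocount of 0.1 RPKM the genes past the rule numbered 449 at day 3 and 873 at day 5 between genotypes. Between days they numbered 681 in the knockout and 804 in wild type, and for the change of the genotype difference 817. Lower at day 5 than at day 3 in the knockout were 2 markers, against 529 of all 11786 genes. With 5 RPKM the counts of all genes, in the same order, were 47, 160, 160, 136 and 114. Markers higher between days then numbered 0 in the knockout, against 9 of all genes, and 1 in wild type, against 58. For the change 1 marker was lower, against 84 of all genes. A mean of at least 5 RPKM gave 110, 318, 267, 260 and 209 genes, and at least 20 reads on average 138 at day 3 and 278 for the change. Rescaling by the median ratio left 1 marker higher between days in wild type, against 145 of 11787 genes, and 1 lower for the change, against 214. The same sum of RPKM gave 2 markers higher between days in the knockout, with Tmem176a at 1.03, against 82 of 11783 genes. For the change it gave 2 markers lower, against 229 genes, with Clec10a at -0.98. The median ratio moved the day 3 median of all genes from 0.13 to -0.02; the day 3 split of 115 higher and 104 lower genes became 70 and 157, and 81 and 125 at the same sum of RPKM. It also turned the wild-type split between days from 212 higher and 242 lower to 145 and 348, and the split of the change from 118 and 310 to 151 and 214, or 141 and 229 at the same sum. A size rule of 0.6 gave 1144, 1652, 1154, 1565 and 1493 of 11786 genes. At day 3, 1 marker was then lower, against 377 of all genes. At day 5, 2 markers were higher and 3 lower, against 640 and 1012 of all genes. Between days, 3 were higher and 2 lower in the knockout, against 326 and 828, and 6 higher in wild type, against 942. For the change 4 were lower, against 1155. Signs changed for Sirpa at day 3, between days in wild type and for the change, for Klf4 and for Notch2 between days in the knockout, each under a rescaling. The causes were not tested.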
